A study of Homo sapiens with 4 samples.

Results

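Regions enriched for the serine 5 phosphorylated form of RNA polymerase II (Pol II S5p) were set against regions enriched for its serine 2 phosphorylated form (S2p), on chromosomes 1 to 22. All regions of both deposited lists on those chromosomes were taken: 61263 of 62532 S5p regions and 53422 of 54601 S2p regions. Together these are 114685 of the 128738 regions deposited for the series. The regions left out, 1269 for S5p and 1179 for S2p, lay on chromosomes X and Y. The data are chromatin immunoprecipitation with sequencing (ChIP-seq) from MCF10A, an immortalised but non-tumour line of human breast epithelial cells, which grew without treatment under normal conditions. Both ChIPs came from that same culture state, so the comparison is between forms of Pol II and not between conditions. Each ChIP was 1 library, and nothing below can be set against a spread between replicates. No test was therefore made. Shares carry exact (Clopper-Pearson) 95% intervals and medians carry 95% intervals from their order statistics. Both cover counting error only and take regions as independent, which neighbouring regions are not.

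Pol II carries a long tail of repeated heptapeptides on its largest subunit, and the phosphorylation of that tail changes as a gene is read. Serine 5 is phosphorylated as Pol II leaves the promoter, mainly by the kinase of the general factor TFIIH, and S5p is known for its peak near the start of genes. Serine 2 is phosphorylated later, by P-TEFb and related kinases that release paused Pol II, and S2p is known to build up through gene bodies towards the 3′ end. The deposited lists give positions without strand, and no annotation of their build, hg19, was used here. Regions are therefore named by position and not by gene, "upstream" and "downstream" cannot be read, and the breast epithelial label could not be checked against marker genes.

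Most S5p and most S2p regions touched the other mark, but large minorities did not. A region was said to meet the other list when it shared at least 1 bp with a region of it. S2p was met by 60.4% of S5p regions (36977 of 61263, interval 60.0 to 60.7), and S5p was met by 55.0% of S2p regions (29399 of 53422, 54.6 to 55.5). Which list had the larger share turned when both lists were limited to a −log10 q-value of 5 or more, with 55.9% for S5p and 58.0% for S2p. This left 24286 S5p regions without S2p and 24023 S2p regions without S5p. By length the unmatched part was smaller. S5p regions without S2p made up 39.6% of the S5p list and 17.1% of its bases (22.1 of 129 Mb), and S2p regions without S5p made up 45.0% of their list and 18.4% of its bases (28.5 of 155 Mb). Where the marks met, overlap was deep. Of the S5p regions that met S2p, 19067 (51.6%) were covered from end to end, and S2p covered 83.8% of the bases of such S5p regions. Of the S2p regions that met S5p, 9894 (33.7%) were covered from end to end, and S5p covered 70.8% of their bases.

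Regions that carried both marks were wider than regions that carried 1, in either list. S5p regions with S2p had a median width of 1387 bp (interval 1367 to 1405, quartiles 697 and 2869), against 677 bp without S2p (670 to 684, quartiles 475 and 1083), a ratio of 2.05. S2p regions with S5p had a median width of 1766 bp (1735 to 1799, quartiles 828 and 4819), against 771 bp without S5p (764 to 779, quartiles 524 and 1298.5), a ratio of 2.29. The classes overlapped over most of the range: every class began at 351 or 378 bp, the narrowest regions of the S5p and S2p lists. They parted in the upper tail. The widest S5p region without S2p was 17584 bp, against 125529 bp with it, and the widest S2p region without S5p was 23183 bp, against 161391 bp with it. With −log10 q-values of at least 5 in both lists, median widths with and without the other mark were 2470 and 964 bp for S5p and 3172 and 1616 bp for S2p. A wide region has more bases with which to meet another, and the share of the difference that this gives was not tested.

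**Figure D1:**
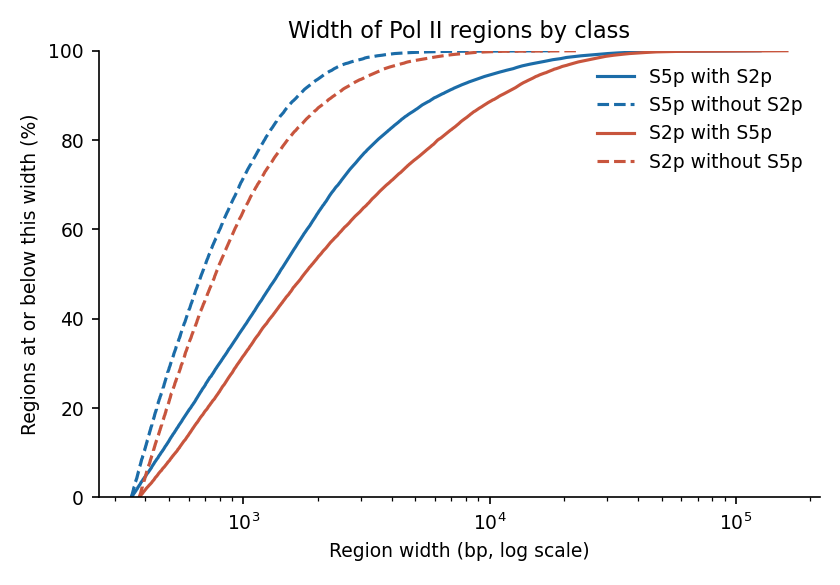
Cumulative share of regions (%) by region width (bp, log axis) for S5p regions with and without S2p and S2p regions with and without S5p, each curve over all regions of its class. The curves of unmatched regions (dashed) lie to the left, with medians of 677 and 771 bp against 1387 and 1766 bp for matched regions.

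Unmatched regions were scarce among wide ones. Of S5p regions of 5 kb or more, 4891 of 4978 met S2p (98.3%, 97.8 to 98.6), and all 601 S5p regions of 20 kb or more did (100%, 99.4 to 100). Of S2p regions of 5 kb or more, 7139 of 7659 met S5p (93.2%, 92.6 to 93.8), and 1008 of 1010 S2p regions of 20 kb or more did (99.8%, 99.3 to 100). Over regions of all widths the shares were 60.4% for S5p and 55.0% for S2p. Wide regions that met no region of the other list were thus rare, though a wide region has more bases with which to meet another. Meeting takes only 1 bp, so this does not extend to stretches inside wide regions. S5p covered a mean of 60.5% of each matched S2p region at 5 to 10 kb and 72.7% at 10 kb or more.

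The authors' fold enrichment, used here to rank and describe regions within a list, divided the unmatched classes differently. Its size is not compared between the lists. Unmatched S2p regions were weak. Their median fold was 3.12 (3.11 to 3.14), against 4.38 (4.33 to 4.40) for S2p regions with S5p, and 67.0% of them had a −log10 q-value under 5, against 27.6% of S2p regions with S5p. Unmatched S5p regions were not so clearly weak. Their median fold was 3.54 (3.51 to 3.57), against 3.95 (3.92 to 3.97) with S2p, and 47.9% of them had a −log10 q-value under 5, against 39.5% with S2p. The lowest −log10 q-value was 1.30 in the S5p list and 1.31 in the S2p list, so an unmatched region may have a partner below that limit.

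With both lists cut into quintiles of fold, S2p regions met S5p more often the stronger they were. From the weakest quintile upwards the shares were 34.3%, 36.6%, 47.1%, 64.5% and 92.6%, around the share of 55.0% in the whole list. The same ranking of S5p regions gave no such steady rise. From the weakest to the strongest S5p quintile the shares meeting S2p were 52.6%, 56.3%, 60.2%, 56.1% and 76.7%, around 60.4% in the whole list, and the next to strongest quintile lay below the middle one. Ranking by width gave a steady rise in both lists, from 40.3% in the narrowest to 92.4% in the widest S5p quintile and from 32.9% to 89.0% for S2p. Fold and width were related, with a Spearman rho of 0.600 over S5p regions and 0.667 over S2p regions, so the rankings were then crossed.

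Crossing fold with width brought out a set of compact, strong S5p regions that mostly lacked S2p. Among S5p regions of the next to strongest fold quintile, 130 of 1123 in the narrowest width quintile met S2p (11.6%, 9.76 to 13.6). In the weakest fold quintile at that same width, 2137 of 4786 did (44.7%, 43.2 to 46.1). In the strongest fold quintile, 48 of 484 regions of the next to narrowest width quintile met S2p (9.92%, 7.40 to 12.9) and 0 of 23 of the narrowest did (0%, 0 to 14.8). In the widest quintile the order turned. There 6136 of 6415 S5p regions of the strongest fold quintile met S2p (95.7%, 95.1 to 96.1), against 280 of 330 of the weakest (84.8%, 80.5 to 88.5). With the cells of the grid pooled, 643 of 3517 S5p regions in the upper pair of fold quintiles and the lower pair of width quintiles met S2p (18.3%, 17.0 to 19.6). In the lower pair of fold quintiles at those widths, 7647 of 15909 did (48.1%, 47.3 to 48.8). When each S5p region was replaced by a window of 1 kb around its summit, which removes the difference in size, these shares were 18.6% and 50.1%. Ranking by −log10 q-value gave 13.0% and 49.7%, and joining regions of a list within 1 kb of each other gave 9.26% and 41.3%. The grid was looked at after the lists had been ranked, and these pooled groups were chosen after their values were seen.

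**Figure D2:**
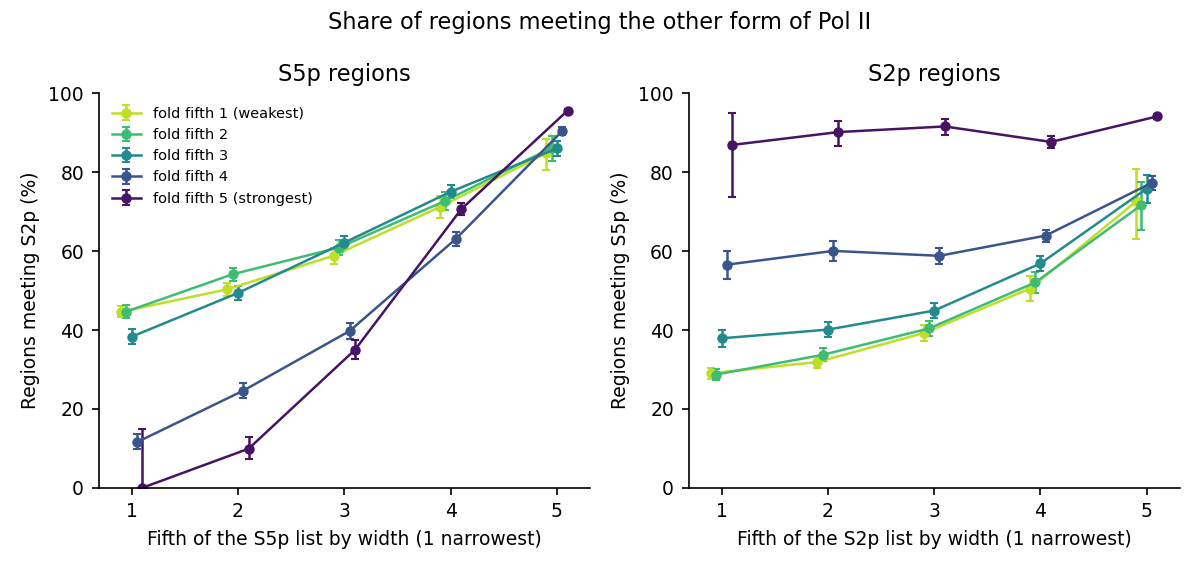
Share of regions (%) that met the other form of Pol II, by quintile of width (horizontal axis, 1 narrowest) and quintile of fold (lines, 1 weakest to 5 strongest), for S5p regions on the left and S2p regions on the right, with exact 95% intervals as bars. At the narrow end, strong S5p regions met S2p least often (11.6% in fold quintile 4 against 44.7% in fold quintile 1), while strong S2p regions met S5p most often.

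S2p regions showed no counterpart to these compact S5p regions. In the strongest S2p fold quintile, 40 of 46 regions of the narrowest width quintile met S5p (87.0%, 73.7 to 95.1), and 7106 of 7543 of the widest did (94.2%, 93.7 to 94.7). In the weakest fold quintile the shares ran from 29.1% (1231 of 4236) in the narrowest to 72.6% (77 of 106) in the widest S2p regions. Strong S2p regions thus met S5p at a high rate at every width, while the rate for weak S2p regions rose with width.

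The top of each list held almost no unmatched region. None of the 100 strongest S5p regions lacked S2p, 1 of the 1000 strongest did, and 114 of the 5000 strongest did (2.28%, 1.88 to 2.73). None of the 1000 strongest S2p regions lacked S5p (0%, 0 to 0.368), and 80 of the 5000 strongest did (1.60%, 1.27 to 1.99). Over the whole lists 39.6% of S5p and 45.0% of S2p regions were unmatched. The strongest unmatched S5p region ranked 962 in its list and the strongest unmatched S2p region ranked 1799 in its own. Strong regions were also wide, with median widths of 2497 bp in the strongest S5p fold quintile and 6149 bp in that of S2p. The medians of the whole lists were 968 and 1099 bp. How much of the scarcity width gives was not tested.

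The S5p regions of largest fold among those without S2p were mostly short beside matched S5p regions of high fold, but not within their own class. The first was on chromosome 8 at 57123576 to 57124971 (hg19), 1396 bp wide with an S5p fold of 62.3, and the nearest S2p region was 5415 bp away. The next were on chromosome 1 at 1216977 to 1217947 (971 bp, fold 51.5), on chromosome 17 at 11923781 to 11925194 (1414 bp, fold 47.6) and on chromosome 11 at 34378727 to 34379784 (1058 bp, fold 45.1). On chromosome 11 the nearest S2p region was 80307 bp away. The last of the 5, on chromosome 9 at 110247820 to 110252741, was wider (4922 bp, fold 44.1) and had an S2p region 1056 bp from its edge. The first 4 of these regions were 971 to 1414 bp wide. In the strongest fold quintile the median was 3254 bp for S5p regions that met S2p and 1228 bp for those that did not. All 5 were wider than the median of 677 bp over all S5p regions without S2p. None of the 5 was in the lower pair of S5p width quintiles, which ended at 766 bp, so none belonged to the compact set pooled above.

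Among S2p regions without S5p, the 5 of largest fold ran from 1741 to 12368 bp in width. The first, on chromosome 8 at 145479102 to 145480842, was 1741 bp wide with an S2p fold of 20.6. On chromosome 7, a region at 55289157 to 55293077 was 3921 bp wide (fold 18.0) and lay 3233 bp from S5p, and a region at 131182042 to 131194409 was 12368 bp wide (fold 18.0) and lay 116114 bp from S5p. The others were on chromosome 4 at 95593402 to 95602697 (9296 bp, fold 17.8), only 704 bp from S5p, and on chromosome 1 at 45305935 to 45316139 (10205 bp, fold 17.0). The widest S2p region without S5p was on chromosome 9 at 114950531 to 114973713, at 23183 bp with a fold of 10.9 and an S5p region 7723 bp away. The other 4 widest, on chromosomes 2, 14, 1 and 5, were 16913 to 20104 bp wide with folds of 4.53 to 8.51, and their gaps to S5p ran from 2057 to 91897 bp.

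Unmatched regions were not evenly far from the other mark. The gap was taken edge to edge, from each unmatched region to the nearest region of the other list on its chromosome. For S2p regions without S5p the median gap was 5293 bp (5171 to 5427), with quartiles of 1826 and 16889.5 bp. For S5p regions without S2p it was 9772 bp (9475 to 10118), with quartiles of 2615.75 and 40650 bp. Of the unmatched S2p regions, 14.1% lay within 1 kb of S5p, 48.6% within 5 kb, 64.6% within 10 kb and 97.0% within 100 kb. Of the unmatched S5p regions, 11.5% lay within 1 kb of S2p, 37.1% within 5 kb, 50.4% within 10 kb and 86.8% within 100 kb. The S2p-only regions were thus closer to the other mark over the whole range, with a longest gap of 626802 bp, against 6875683 bp for S5p-only regions. The S5p list held more regions to lie near, 61263 against 53422 in the S2p list. Across the 22 chromosomes, S5p regions per Mb and the median S2p-only gap had a Spearman rho of -0.826. How much of the difference density gives was not tested. With both lists limited to −log10 q-values from 5 upwards, both median gaps were longer, at 8984.5 and 20999 bp. The nearest S5p region lay at lower coordinates for 11792 and at higher coordinates for 12231 of the unmatched S2p regions.

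**Figure D3:**
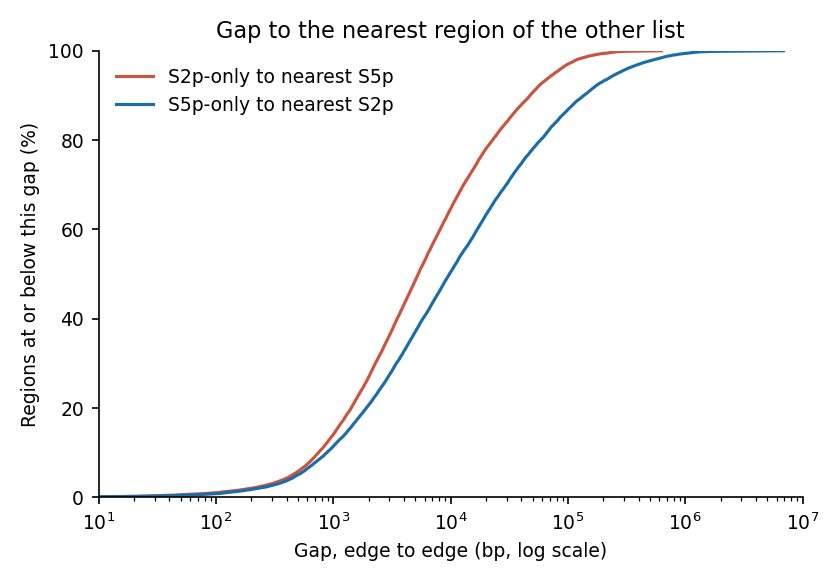
Cumulative share of unmatched regions (%) by the gap to the nearest region of the other list (bp, log axis), for 24023 S2p-only and 24286 S5p-only regions. The S2p-only curve lies to the left, with a median of 5293 bp against 9772 bp.

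Few regions turned on the exact limit of overlap. Of 41496 overlapping pairs, 42 shared 10 bp or less, and 33 unmatched S2p and 31 unmatched S5p regions lay within 10 bp of the other list. The smallest overlap, 1 bp, was between an S5p region on chromosome 6 at 56377819 to 56378528 (fold 2.35) and an S2p region at 56377261 to 56377819 (fold 2.69). Just outside, an S2p region on chromosome 21 at 34880544 to 34881352 (fold 4.16) and an S5p region on chromosome 12 at 120885591 to 120885944 (fold 2.91) each touched the other list without sharing a base.

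Unmatched regions of higher fold tended to lie farther from the other mark in both lists, though not at every step of fold. S5p-only regions within 1 kb of S2p had a median S5p fold of 3.07 (2783 regions), those 10 to 50 kb away 3.67 (6694), and those more than 100 kb away 4.57 (3197). Their median widths stayed between 608 and 707 bp. S2p-only regions had median S2p folds of 3.03 within 1 kb of S5p (3386 regions), 3.16 at 10 to 50 kb (6255) and 3.26 beyond 100 kb (716), with widths of 720 to 851 bp. Seen by strength, the median gap to S2p was 5050 bp for unmatched S5p regions of the weakest fold quintile, 27787 bp for the next to strongest and 22254 bp for the strongest. Of the 5377 unmatched S5p regions in the next to strongest quintile, 37.4% lay more than 50 kb from any S2p region, against 11.0% of the 5813 in the weakest. For unmatched S2p regions the median gap to S5p was 4582.5 bp in the weakest fold quintile, 6465 bp in the next to strongest and 12125 bp in the strongest. The share of them more than 50 kb from S5p was 7.42% of 7018 in the weakest and 21.9% of 786 in the strongest.

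Unmatched S2p regions tended to sit among other S2p regions, as S2p regions did in general. Their median gap to the next region of their own list was 934 bp, close to the 823 bp of S2p regions with S5p, and 87.8% had another S2p region within 5 kb. When S2p regions no more than 5 kb apart were chained, 14178 of the 24023 unmatched S2p regions (59.0%) fell in a chain with at least 1 S2p region that met S5p, and 2935 (12.2%) stood alone. Over the whole S2p list 7092 of 53422 regions stood alone, a similar share. For S5p the median gap within the list was 2629 bp for unmatched and 812 bp for matched regions. Chained in that way, 10445 of the 24286 unmatched S5p regions (43.0%) shared a chain with a matched one and 9351 (38.5%) stood alone. Over the whole S5p list 13929 of 61263 regions stood alone, a smaller share. The S5p region nearest to an unmatched S2p region was itself matched to S2p in 72.2% of cases, counted once for each unmatched S2p region, or in 72.3% of the 11850 distinct S5p regions involved, against 60.4% of all S5p regions. The mirror was alike. The S2p region nearest to an unmatched S5p region was matched in 68.8% of cases. Among the 12069 distinct S2p regions involved the share was 65.2%, against 55.0% of all S2p regions.

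The 5 S2p-only regions farthest from S5p lay on chromosomes 15, 1 and 6. The farthest, on chromosome 15 at 28352444 to 28355813, was 3370 bp wide with an S2p fold of 5.50 and lay 626802 bp from S5p. A neighbour on that chromosome, at 28428021 to 28428733, lay 553882 bp away. The others, on chromosome 1 at 245905806 to 245906825 and on chromosome 6 at 141774064 to 141774473 and 141775978 to 141776482, were 410 to 1020 bp wide with folds of 2.74 to 3.47, and lay 558412 to 585515 bp from S5p.

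Where the marks met, 1 region of each was the usual arrangement. Linking every overlapping pair gave 24880 separate sets. Of these, 16465 (66.2%) paired 1 S5p with 1 S2p region, 5200 (20.9%) joined several S5p regions to 1 S2p region, 2038 (8.19%) joined 1 S5p region to several S2p regions and 1177 (4.73%) held several of each. Sets with several S5p regions in 1 S2p region outnumbered the opposite arrangement by 5200 to 2038, and they held 14794 S5p regions, or 40.0% of all S5p regions that met S2p.

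Seen from S2p, 22820 of the 29399 regions that met S5p met 1 S5p region, 3884 met 2, 1406 met 3, 615 met 4 and 674 met 5 or more. Width rose along this series, from a median of 1251 bp with 1 S5p region to 5241.5 bp with 2, 8977 bp with 3 and 20018.5 bp with 5 or more. The share meeting 2 or more was 22.4% in all (21.9 to 22.9). It was 0.580% for S2p regions under 1 kb, 24.9% at 2 to 5 kb, 55.5% at 5 to 10 kb and 78.1% at 20 kb or more. Per length the order was the reverse: matched S2p regions of 5 to 10 kb held 2.60 S5p regions per 10 kb, and those of 20 kb or more held 1.25, partly by construction, since each holds at least 1. Seen from S5p, 9.03% of the regions that met S2p met 2 or more S2p regions (8.74 to 9.32), and 54.1% of those of 20 kb or more did.

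The S2p regions that met the most S5p regions were long. On chromosome 1 at 208191441 to 208250027, an S2p region of 58587 bp with a fold of 13.1 met 21 S5p regions. On chromosome 7 at 77269226 to 77322857 a region of 53632 bp met 19, and on chromosome 17 at 17040703 to 17128251 a region of 87549 bp met 18. Regions on chromosome 6 at 42033245 to 42076565 and on chromosome 9 at 136652258 to 136690597 met 16 and 15. In these 5 places 1 unbroken S2p region spanned many separate S5p regions.

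The opposite arrangement was seen in long S5p regions. On chromosome 3 at 57993864 to 58119392, the widest S5p region (125529 bp, fold 48.7) met 18 S2p regions. On chromosome 2 at 192129147 to 192188379 an S5p region of 59233 bp met 17, on chromosome 14 at 69325553 to 69447552 one of 122000 bp met 15, and on chromosome 5 at 154132491 to 154175181 one of 42691 bp met 15. The last of the 5, on chromosome 22 at 36669517 to 36785092, met 11. Except on chromosome 2, where the S5p fold was 8.57, these 5 S5p regions had folds of 42.7 or more.

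In the 16465 simple pairs the widths of the marks crossed over with S5p strength. The S2p region was the wider in 51.6% of all pairs (50.8 to 52.3). With the pairs cut into quintiles of S5p fold, from the weakest up, the share with a wider S2p region was 75.8%, 71.0%, 62.1%, 31.4% and 17.6%. The median S5p width rose along those quintiles from 617 to 2442 bp, whereas the median S2p width was 1193 bp in the first and 1378 bp in the last. S5p fold went with S5p width over the whole S5p list (Spearman rho 0.600), so this ranking places wide S5p regions in the upper quintiles. How much of the crossover that gives was not tested, and no ranking by S2p fold is given. Median S2p fold went from 3.35 to 6.01 along those quintiles, while that of S5p, which set the ranking, went from 2.66 to 39.7. The folds come from different ChIPs at unknown depth, so the sizes of these rises cannot be compared. Over all pairs the Spearman rho of S5p fold with S2p fold was 0.428 and that of the widths was 0.326. These are given as a description, over pairs that share a genome and may share an input.

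The summits of a pair were usually close and had no preferred order along the chromosome. The summit is the position of highest enrichment in a region. The median distance between the S5p and the S2p summit was 228 bp (221 to 236, quartiles 73 and 626), and 52.2% of pairs were within 250 bp. The S2p summit lay at the higher coordinate in 8212 pairs, at the lower in 8185 and at the same base in 68. An even division is what positions without strand would give whether or not the marks are ordered along genes. In the strongest quintile of pairs by S5p fold the median distance was 68 bp (65 to 74) and 75.8% were within 250 bp, against 336 bp (319 to 352) and 41.1% in the weakest. The same strongest quintile had a long tail, with 10% of its pairs more than 2757 bp apart, against 1240.8 bp in the weakest.

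Pair layout and width went with summit distance. The S2p region lay inside the S5p region in 5496 pairs, with a median summit distance of 108 bp. The S5p region lay inside the S2p region in 5114 pairs, with 298.5 bp, and the regions were staggered in 5855 pairs, with 329 bp. By S2p width the median distance rose from 149 bp under 1 kb to 363 bp at 2 to 5 kb, 572 bp at 5 to 10 kb and 4019 bp at 10 kb or more (536 pairs). The median S2p widths of these groups were 632, 2936, 6647 and 14357.5 bp. Wider regions leave more room between summits, so a rise with width is partly fixed by construction. Widths also differed between the layouts. How much of either difference width gives was not tested.

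The 5 pairs with the largest summit distance were domains that both marks covered nearly from end to end, with their summits far apart. On chromosome 1, an S2p region at 223900236 to 223955328 (fold 12.0) was paired with an S5p region at 223899785 to 223955297 (fold 37.8). The S5p summit lay 0.176% and the S2p summit 96.4% of the way along the S2p region, 52994 bp apart. On chromosome 2 at 242157708 to 242214414 the summits were 48561 bp apart, with S5p at 96.3% and S2p at 10.6%. On chromosome 1 at 209770756 to 209831443, where both folds were high (S5p 83.2, S2p 96.8), S5p lay at 90.6% and S2p at 24.2%. On chromosome 22 at 46464541 to 46524848 S5p lay at 2.40% and S2p at 66.9%, and on chromosome 11 at 70242876 to 70290172 S5p lay at 3.85% and S2p at 85.9%. In all 5 the S5p summit was within 10% of an end and the S2p summit was across the midpoint, as a choice by largest distance tends to give.

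Over all S2p regions of 5 kb or more, that opposed arrangement was the less common one. The strongest S5p region was taken in each, and its summit lay inside the S2p region in 6254 of 7139 cases (87.6%). The S5p and S2p summits lay on the same side of the midpoint in 4202 of the 6254 (67.2%, 66.0 to 68.4) and on opposite sides in 2052 (32.8%, 31.6 to 34.0). The opposed share was 32.5% at 5 to 10 kb, 31.5% at 10 to 20 kb, 36.1% at 20 to 50 kb and 53.7% at 50 kb or more (29 of 54, 39.6 to 67.4). The last value rests on 54 regions, and its interval lies only just above that at 20 to 50 kb (32.8 to 39.6).

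The S2p summit kept away from the ends of these regions, while the S5p summit was spread along them. The S5p summit was nearer to an end than the S2p summit in 3830 of the 6254 regions (61.2%, 60.0 to 62.5). It lay in the outer 10% at either end in 1363 regions (21.8%, 20.8 to 22.8), against 463 for the S2p summit (7.40%, 6.77 to 8.08). Summits placed evenly would give 20% there, close to the S5p value and well above that of S2p. These regions were called from S2p enrichment, which tends to keep S2p summits from their ends by construction. The even value is therefore no fair reference for S2p. An excess of S5p summits at the ends was seen where S5p was strong. With an S5p region of the strongest fold quintile, 38.9% of S5p summits (37.0 to 40.9, 2518 regions) and 10.4% of S2p summits were in the outer 10%. With weaker S5p regions these were 10.3% and 5.38% (3736 regions). By width, the S5p and S2p values were 17.5% and 6.76% at 5 to 10 kb, 24.0% and 7.64% at 10 to 20 kb, 32.1% and 8.62% at 20 to 50 kb, and 51.9% and 20.4% at 50 kb or more (54 regions). The mirror was taken in 4162 S5p regions of 5 kb or more with the strongest S2p summit inside. There the S5p summit was nearer to an end than the S2p summit in 59.0% (57.5 to 60.5). The summits lay on opposite sides of the midpoint in 39.9% (38.4 to 41.4).

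**Figure D4:**
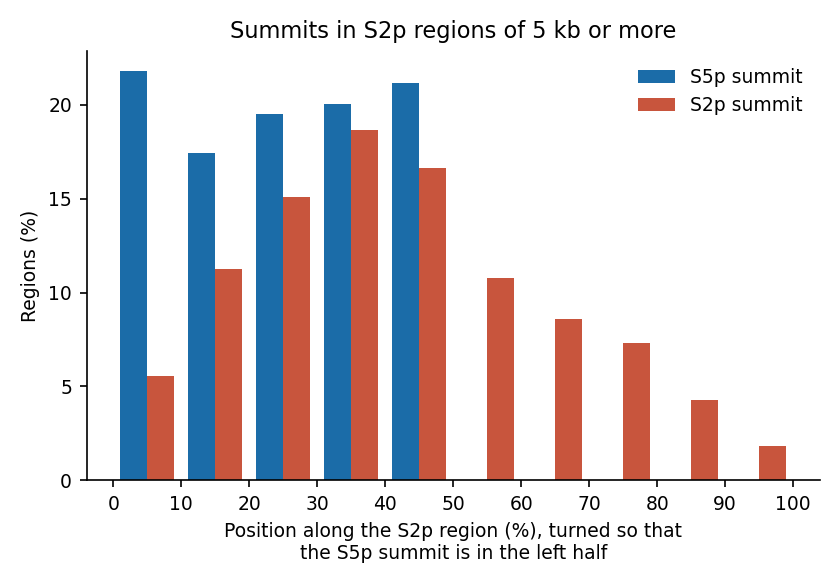
Position of the S5p summit (blue) and the S2p summit (red) along 6254 S2p regions of 5 kb or more, in steps of 10% of the region, each region turned so that its S5p summit is on the left of the midpoint, which by construction leaves no S5p summit on the right. S5p summits are spread over the 5 steps they can occupy (17.5% to 21.8% each), and 32.8% of S2p summits lie right of the midpoint, with few at either end (5.56% and 1.84%).

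S2p summits lay on S5p more often than the rest of their regions did, mainly in wide regions. Of the S2p summits in regions that met S5p, 24575 of 29399 were inside an S5p region (83.6%, 83.2 to 84.0), whereas S5p covered a mean of 73.4% of each such S2p region. For S2p regions of 10 kb or more the values were 93.8% and 72.7%, and at 2 to 5 kb they were 78.0% and 63.3%. The difference was small in narrower S2p regions, with 79.8% and 74.9% at 1 to 2 kb and 86.2% and 84.8% under 1 kb (9318 regions). Of the S5p summits in regions that met S2p, 33556 of 36977 were inside an S2p region (90.7%, 90.4 to 91.0), with a mean S2p cover of 82.8%.

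Around S5p summits, S2p fell off faster in the strongest than in the weakest S5p fold quintile. At the summit itself, 72.7% of S5p regions of the strongest fold quintile and 44.6% of the weakest were inside S2p. At 0.5 kb to either side the shares were 45.1% and 40.5%. From 1 kb outwards the order turned, with 32.9% and 38.3% at 1 kb, 28.2% and 38.2% at 2 kb and 25.8% and 32.0% at 10 kb. By 50 kb the values were 19.2% and 19.8%, and at 100 kb they were 15.8% and 15.2%. At 10 kb from the strongest S5p summits, S2p was present on 1 side only for 32.9% of summits and on both sides for 9.35%. These shares were 34.1% and 13.6% over all S5p summits and 35.9% and 14.0% in the weakest quintile. As a share of all summits, presence on 1 side only was thus not more frequent around the strongest at 10 kb. Nearer the summit that share was 26.4% (strongest) and 22.1% (weakest) at 1 kb, and 26.8% and 27.0% at 2 kb. Among summits with S2p on at least 1 side at 10 kb, 77.9% of the strongest and 71.9% of the weakest had it on 1 side only. The reading therefore depends on the distance and on the summits counted.

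Around S2p summits, the fall in S5p differed between the strongest and the weakest S2p regions. For the strongest S2p quintile, positions inside S5p fell from 86.8% at the summit to 62.8% at 1 kb, 35.6% at 5 kb and 18.0% at 50 kb. Over the whole S2p list they fell from 46.0% to 30.8%, 25.4% and 15.7%. For the weakest quintile they stayed between 19.9% and 24.8% from the summit out to 20 kb. Weak S2p summits were thus inside S5p about as often (24.8%) as positions 10 kb away from them (22.6%).

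**Figure D5:**
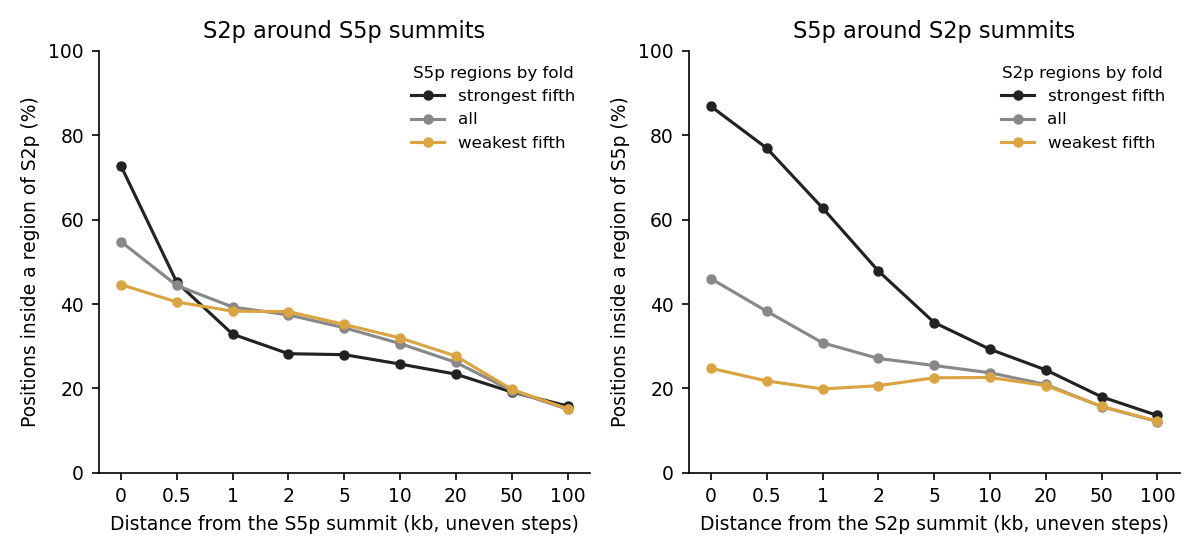
Share of positions (%) inside a region of the other mark at set distances (kb, uneven steps, mean of both sides) from S5p summits on the left and S2p summits on the right, for the strongest and weakest quintile by fold and for all regions. S2p around strong S5p summits falls from 72.7% to 32.9% within 1 kb and then runs below the line for weak S5p summits out to 50 kb.

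The pattern differed in degree between chromosomes. Over the 22 chromosomes the share of S5p regions meeting S2p ran from 53.4% on chromosome 18 to 72.2% on chromosome 19, with a median of 59.5%. The share of S2p regions meeting S5p ran from 48.6% on chromosome 18 to 63.8% on chromosome 19, with a median of 53.9%. Chromosome 19 also had the most regions per Mb, at 53.8 for S5p and 46.5 for S2p, and chromosome 13 the fewest, at 12.5 and 11.4. Across the 22 chromosomes, S2p regions per Mb and the share of S5p regions meeting S2p had a Spearman rho of 0.850, given as a description. How far density alone sets that share was not tested. The median gap from S2p-only regions to S5p ran from 3452.5 bp on chromosome 16 to 9029 bp on chromosome 18. Chromosome 20 stood apart in its balance of the marks, with 1.31 S5p regions for each S2p region, against a median of 1.15 over the chromosomes. It was also the only chromosome of the 22 on which S2p regions met S5p (63.1%, 60.6 to 65.5) more often than S5p regions met S2p (60.8%, 58.6 to 62.9). These intervals overlap. The order of the shares over the whole lists also turned under other settings, such as a −log10 q-value of 5 or more. No values for chromosome 20 alone are given for those settings.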

How the data were processed

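Crosslinked, sonicated chromatin of MCF10A cells was immunoprecipitated with antibodies to Pol II S5p or S2p, per the labels' protocols. Per the submitters' processing notes, bcl2fastq 2.20.0.422 made the reads and hg19 was the build. Not given in the sources used here are the aligner, the peak caller, its control and whether reads were pooled. Read depth is unknown, and a deeper library gives more and wider regions. The deposited fold enrichment is the authors' ratio over background. The deposited −log10 q-values reached down to 1.30 for S5p and 1.31 for S2p, and the deposited score repeats them. Positions are printed 1-based. The 53BP1 list and the input were not used here, and no gene table of the files' build was at hand. Gaps, counts and summits (start plus offset) were computed with scipy 1.17.1, pandas 2.3.3 and numpy 2.4.6 under Python 3.11.15, and drawn with matplotlib 3.10.9. The code was tested on simulated data with 0%, 25% and 75% of 5000 regions planted, with 0 wrong classes or gaps.

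The regions named are, by rule, the 5 strongest unmatched of each list, the 5 widest and 5 farthest S2p-only, the 5 of each list meeting most of the other, the 5 pairs with the largest summit distance, and those at the limit of overlap. The comparison, its rule and these choices were made with earlier results of these data known. Alternatives were overlap of 50% of the shorter region, a −log10 q-value of 5 or more, the upper 50% by fold, joining within 1 kb, adding chromosome X and leaving out chromosomes 1, 8 and 20.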

Additional observations from a re-analysis of the deposited data

How the results depend on the processing

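Adding chromosome X, or leaving out chromosomes 1, 8 and 20, moved none of the 13 values recomputed beyond its interval. Requiring 50% of the shorter region gave S5p and S2p shares of 57.9% and 52.6%, matched widths of 1439.5 and 1881 bp, gaps of 4740 bp (S2p-only) and 8336 bp (S5p-only) and 20.3% of matched S2p regions with 2 or more S5p regions. A −log10 q-value of 5 or more, which kept 35046 S5p and 29202 S2p regions, gave shares of 55.9% and 58.0%, so that their order turned. Widths were then 2470 and 964 bp for S5p with and without S2p and 3172 and 1616 bp for S2p with and without S5p, gaps 8984.5 and 20999 bp, the share with 2 or more 18.7% and the summit distance 178.5 bp. The upper 50% by fold gave shares of 54.8% and 55.5%, widths of 2634, 1048, 3495 and 1650.5 bp, gaps of 9608 and 22349 bp, 17.4% with 2 or more, 180 bp between summits and 31.5% of wide S2p regions with opposed summits. Both leave out weak, narrow regions by construction. Joining within 1 kb gave shares of 56.6% and 59.5%, widths of 2114, 704, 2935 and 831 bp, gaps of 7765 and 15485 bp, 18.9% with 2 or more, 272.5 bp and 34.8%. In each of these settings matched regions were the wider and S2p-only regions had the shorter gap, while which list had the larger share meeting the other did not hold. For narrow S5p regions, alternatives chosen after seeing the data gave shares meeting S2p of 21.7% (high fold) and 56.6% (low fold) with S2p within 1 kb, 13.0% and 49.7% ranked by −log10 q-value, and 9.26% and 41.3% after joining; 1 kb windows gave 50.1% for low fold. No paired analysis was possible because S5p and S2p were single libraries. An unmatched region was not detected with the other mark at unknown depth, and is not shown to lack it.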
